A study of Rattus norvegicus with 9 samples.

Results

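The enzymes and chaperones that prepare and crosslink collagen were examined in RNA-seq of rat left ventricle after myocardial infarction (MI). They comprised 10 genes, Lox, Loxl1, Loxl2, Loxl3, Plod1, Plod2, P4ha1, P4ha3, Serpinh1 and Fkbp10, taken by gene name from a table of 35843 genes, in which each of the 10 had 1 row. All animals were adult male Sprague-Dawley (SD) rats, and hearts were taken at day 28. Group Sham (3 rats) underwent the operation without infarction and received saline by gavage, group MI (3 rats) had the left anterior descending coronary artery tied permanently and received saline, and group MI + DAPA (1st d) (3 rats), called group DAPA from here on, had the same ligation and received dapagliflozin, an SGLT2 inhibitor, by gavage every day from the first day on. The study took molecular samples mainly from beside the infarct, with the scar removed, and from the matching place in group Sham, whereas of the RNA-seq it speaks of left ventricles and of infarcted myocardium, so how much infarct the sequenced pieces held is not settled by the sources used here. Each value is the RNA of a piece of ventricle with all of its cells, so fewer cells of a type and less RNA per cell cannot be told apart. The labels call the samples of a group biological replicates, and no label names a litter, batch or day of processing. Each sample title carries a pair of names under one number and does not say what the pair stands for, and each sample is called a rat here.

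Collagen is made on the ribosomes of the endoplasmic reticulum, where prolines and lysines of the growing chains are hydroxylated before the chains wind into a triple helix. The prolyl 4-hydroxylases (P4ha genes, catalytic subunits) give the helix its heat stability, the lysyl hydroxylases (Plod genes) prepare lysines for glycosylation and for crosslinks, and the chaperones Serpinh1 (HSP47) and Fkbp10 (FKBP65) accompany the chains on their way to secretion. Outside the cell the copper-dependent amine oxidases of the lysyl oxidase family (Lox genes) oxidise lysines and hydroxylysines, which then form the covalent crosslinks of collagen and elastin that stiffen scar tissue.

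The libraries held between 13597239 and 17210909 reads per rat, as recovered from the deposited values. Genes of the mitochondrial genome took 61.1 to 66.9% of these reads for Sham, 7.07 to 19.1% for MI and 17.5 to 32.0% for DAPA, so other genes were measured on 5702454 to 6570698 reads in group Sham against 11440726 to 13171891 in the infarcted groups. Each FPKM value is a read count divided by gene length and by a factor of the library, which was 0.841 to 1 for Sham, 1.69 to 1.85 for MI and 1.53 to 1.73 for DAPA relative to Sham1 and so did not follow the total of reads. The FPKM of all genes accordingly summed to 1401350 to 1746110 for Sham, 484156 to 574023 for MI and 523207 to 803360 for DAPA. The tissue label was checked against 10 cardiomyocyte markers, of which 9 were found, each above 0 in all 9 rats, and their FPKM summed to 5587 to 8242 for Sham, 1214 to 6096 for MI and 4803 to 10402 for DAPA. Rat MI2 stood apart from the others, with the lowest cardiomyocyte sum, 1214, and the highest sum of the B and plasma cell markers, 3644 against 35.1 and 634 in the other two rats of group MI. Log2 fold changes of the 10 genes that moved by more than 1.5 times without it are given without it too.

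Between group MI and group Sham, 9 of the 10 genes were higher in group MI, by the criteria of the study (here an unadjusted limma p below 0.05 with a log2 fold change beyond 1 in size), and 8 of these 9 also passed a Benjamini-Hochberg adjusted p of 0.05. Of all 13485 genes tested, 12.1% were called higher and 10.3% lower by the first rule, and 11.5% were higher by the adjusted one. The median log2 fold change of the 10 genes was 1.64, against -0.01 for all genes tested. The gene that did not pass was Plod1. In 9 of the 10 genes the 3 rats of group MI lay above the 3 rats of group Sham without overlap, as did 27.1% of all genes tested. Without rat MI2, 8 of 9 genes tested were called higher, and P4ha3 was no longer tested. That fit called 1303 genes higher and 1242 lower of all 12954 tested.

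**Figure D1:**
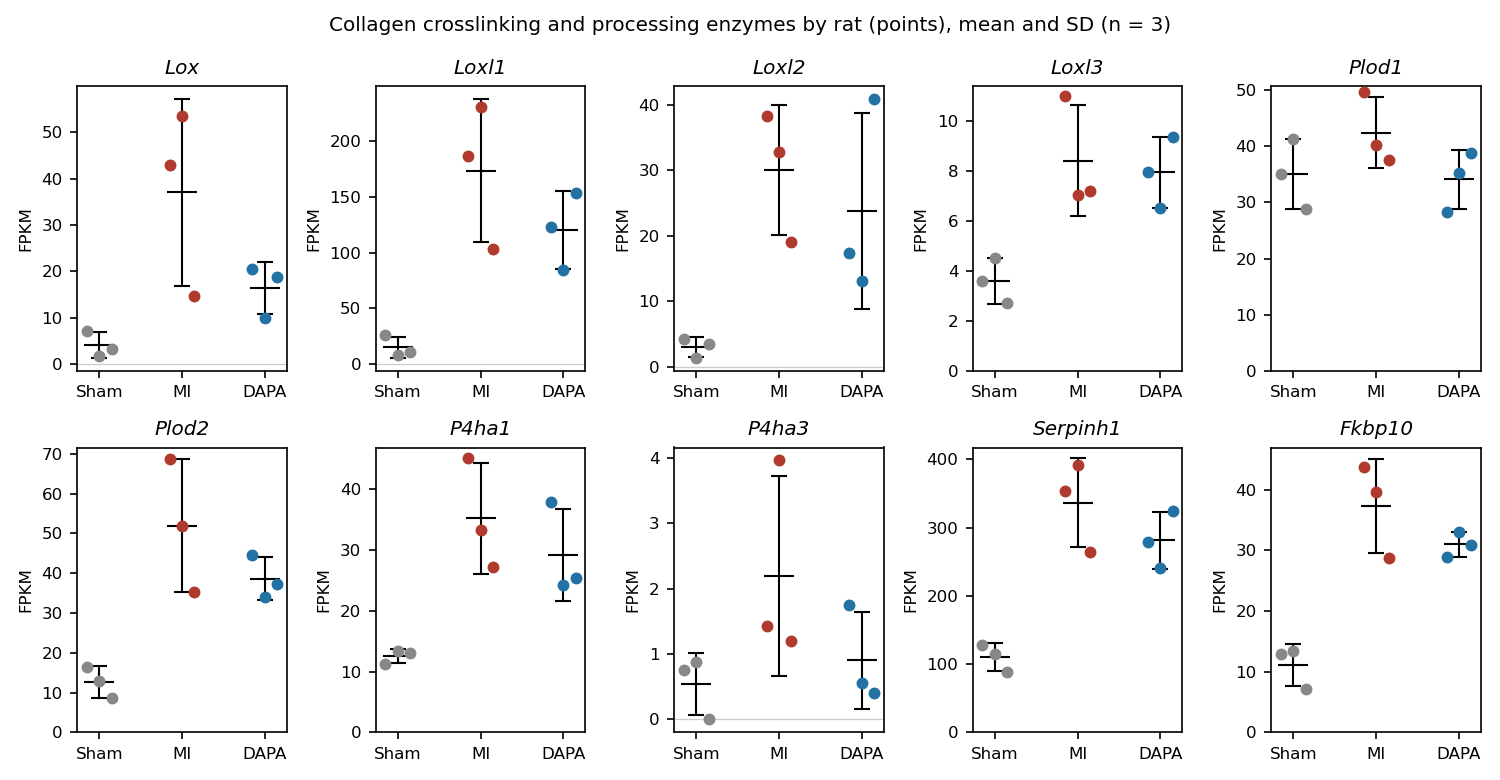
FPKM (vertical axes, linear) of each of the 10 genes in every rat of groups Sham, MI and DAPA, where points are rats and the black marks are the mean and SD of 3 rats. Rats of group MI lie above all rats of group Sham in every panel but Plod1, and the points of groups MI and DAPA overlap in all 10 panels.

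Loxl1, Loxl2 and Lox, of the lysyl oxidases, showed the largest differences. Loxl1 (ENSRNOG00000008680), an oxidase known for elastic fibre assembly, was at 25.6, 8.19 and 10.7 FPKM in the 3 rats of group Sham, at 186, 230 and 104 FPKM in group MI and at 122.8, 84.4 and 154 FPKM in group DAPA. Every infarcted rat, treated or not, lay above every rat of group Sham, and the treated rats lay within and just below the range of group MI. The mean FPKM was 14.9 ± 9.42 for Sham, 173 ± 64.3 for MI and 120 ± 34.7 for DAPA (SD, n = 3 each). The log2 fold change of Loxl1 in MI vs. Sham was 3.54 (SE 0.45, limma adjusted p = 0.00197), the largest of the 10.

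Lox (ENSRNOG00000014426), the founding enzyme of the family, was at 7.20, 1.80 and 3.38 FPKM in group Sham, at 43.0, 53.6 and 14.7 FPKM in group MI and at 20.5, 10.01 and 18.8 FPKM in group DAPA. The low rat of group MI was MI3, which lay inside the range of the treated rats, whereas the other two rats of group MI were at more than any treated rat. The log2 fold change in MI vs. Sham was 2.85 (SE 0.55, limma adjusted p = 0.00750). Loxl2 (ENSRNOG00000016758), a member with scavenger receptor domains that acts on collagen IV among others, was at 4.21, 1.34 and 3.48 FPKM in group Sham, at 38.3, 32.8 and 19.1 FPKM in group MI and at 17.4, 13.1 and 40.9 FPKM in group DAPA. It was the only one of the 10 genes whose highest value among the 9 rats was found in a treated rat, DAPA3. The log2 fold change of Loxl2 in MI vs. Sham was 2.98 (SE 0.37, limma adjusted p = 0.00185).

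Loxl3 (ENSRNOG00000061373), the close relative of Loxl2, was at 3.62, 4.54 and 2.70 FPKM in group Sham, at 10.99, 7.05 and 7.21 FPKM in group MI and at 7.96, 6.50 and 9.37 FPKM in group DAPA. Both infarcted groups lay above group Sham without overlap, with much smaller distances than in the other oxidases. The log2 fold change in MI vs. Sham was 1.02 (SE 0.23, limma adjusted p = 0.0140), just past the fold threshold. It fell below that threshold without Sham3 (0.87) and without MI1 (0.84).

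The upstream sequence of Loxl1, the gene with the largest difference, is printed here so that it can be set beside those of the hydroxylases and of Serpinh1 below. The RefSeq promoter table of rat build GRCr8 held 7 of the 10 genes and did not hold Lox, Loxl2 and Fkbp10. The build of the deposited table is not given in the sources used here, so the coordinates belong to the RefSeq table alone. The 250 bases before the start of Loxl1, 5′ to 3′ in the direction of the gene, lie at chr8:67612225-67612474 (minus strand), and none of the motifs described with Plod2 was found in them.
Loxl1: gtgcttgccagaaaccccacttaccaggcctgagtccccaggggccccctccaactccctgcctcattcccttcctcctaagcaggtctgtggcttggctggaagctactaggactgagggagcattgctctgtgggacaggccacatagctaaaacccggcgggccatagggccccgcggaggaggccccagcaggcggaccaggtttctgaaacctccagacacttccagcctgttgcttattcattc

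The lysyl hydroxylases moved apart from each other. Plod2 (ENSRNOG00000030183), which hydroxylates the telopeptide lysines that carry the stable pyridinoline crosslinks of fibrotic collagen, was at 16.5, 12.9 and 8.54 FPKM in group Sham, at 68.6, 51.9 and 35.3 FPKM in group MI and at 44.6, 33.9 and 37.3 FPKM in group DAPA. All 6 infarcted rats were above all rats of group Sham, and the log2 fold change in MI vs. Sham was 1.95 (SE 0.30, limma adjusted p = 0.00375). Plod1 (ENSRNOG00000007763), which hydroxylates lysines within the helix, was at 35.1, 41.3 and 28.8 FPKM in group Sham, at 49.6, 40.1 and 37.5 FPKM in group MI and at 28.3, 35.2 and 38.7 FPKM in group DAPA. The 3 groups overlapped, and the log2 fold change in MI vs. Sham was 0.27 with a 95% interval of -0.16 to 0.70 (limma adjusted p = 0.274). It was 0.14 without Sham3 and 0.16 without MI1.

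Within each rat the ratio of Plod2 to Plod1, which does not depend on how the libraries were scaled, differed between the groups. The log2 ratio of FPKM was -1.09, -1.68 and -1.75 in group Sham, 0.47, 0.37 and -0.09 in group MI and 0.65, -0.05 and -0.05 in group DAPA. Every infarcted rat had more Plod2 relative to Plod1 than any rat of group Sham. The difference of the mean log2 ratio between groups MI and Sham was 1.75, for which the exact permutation test (two-sided) gave p = 0.1, the floor for groups of 3, and 0.15 after Benjamini-Hochberg adjustment over 9 ratios. The share of Plod2 in the summed FPKM of Plod1, Plod2 and Plod3 was 19.1% ± 3.47 for Sham, 44.7% ± 5.34 for MI and 41.4% ± 3.96 for DAPA (SD, n = 3 each), with no overlap between either infarcted group and group Sham (exact permutation p = 0.1 for each).

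**Figure D2:**
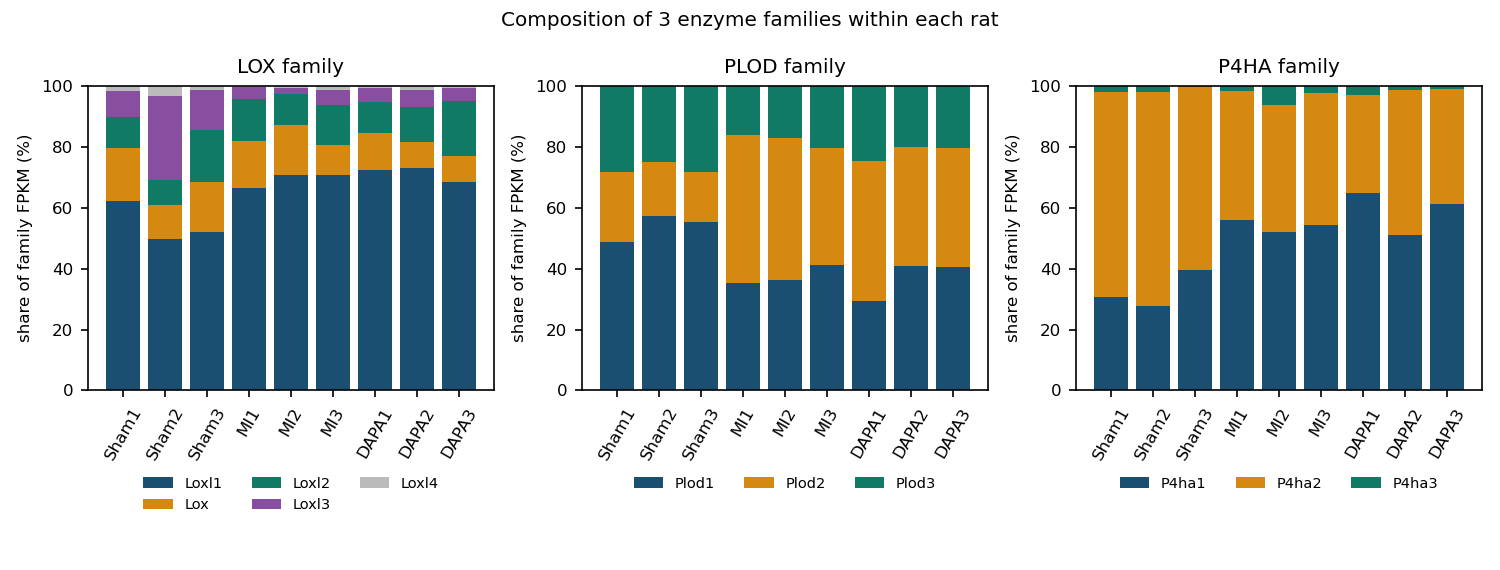
Share of each paralog in the summed FPKM of its family (vertical axes, percent) in each of the 9 rats (horizontal axes), for the lysyl oxidases (LOX), the lysyl hydroxylases (PLOD) and the prolyl 4-hydroxylase catalytic subunits (P4HA), with one stacked bar per rat. The Plod2 share is 16.4 to 23.0% in the rats of group Sham and 38.6 to 48.7% in the infarcted rats, and the P4ha1 share is 27.9 to 39.5% and 51.1 to 64.8%.

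The upstream sequences of Plod2 and Plod1 are shown because the pair differed in the infarcted hearts. They cover the 250 bases before the RefSeq start in build GRCr8, at chr8:101964068-101964317 (plus strand) for Plod2 and chr5:163650738-163650987 (minus strand) for Plod1, each 5′ to 3′ along its gene. Capitals mark matches, on either strand, to ACGTG and to the heat shock element, and the matches do not overlap each other. ACGTG is a form of the core of the hypoxia response element, and another form, GCGTG, was not searched. The heat shock element was searched as 3 alternating units of TTC and GAA with 2 bases between units. The motifs were chosen after the sequences had been seen.
Plod2: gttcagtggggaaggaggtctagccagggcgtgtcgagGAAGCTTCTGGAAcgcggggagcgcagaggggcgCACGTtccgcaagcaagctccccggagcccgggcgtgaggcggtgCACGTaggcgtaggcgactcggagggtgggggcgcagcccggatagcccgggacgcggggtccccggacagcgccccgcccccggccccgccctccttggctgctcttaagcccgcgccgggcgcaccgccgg
Plod1: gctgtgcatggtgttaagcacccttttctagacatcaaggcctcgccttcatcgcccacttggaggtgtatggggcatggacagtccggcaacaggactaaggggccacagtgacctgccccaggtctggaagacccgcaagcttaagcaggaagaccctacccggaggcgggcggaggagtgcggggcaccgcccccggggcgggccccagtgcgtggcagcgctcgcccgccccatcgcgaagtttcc

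The window of Plod2 held 2 matches to ACGTG, at 178 to 174 and 133 to 129 bases before the start. It also held 1 match to the heat shock element, 212 to 200 bases before the start. None of the motifs as searched occurred in the window of Plod1. The windows of Loxl3 and P4ha1, both called higher in MI vs. Sham, and of P4ha3 held none either. The unsearched form GCGTG stands in the windows of both Plod2 and Plod1, so the pair is not told apart by the hypoxia core at large. Of 27457 rat windows of the same length, 16.9% held ACGTG and 0.597% held the heat shock element. TATAAA or TATATA (16.2% of windows) and CCAAT (34.3% of windows), searched on both strands too, were in none of the 7 windows. A match describes the letters only.

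Of the prolyl 4-hydroxylases, P4ha1 (ENSRNOG00000050655), the catalytic subunit of the most widespread form, was at 11.3, 13.4 and 13.1 FPKM in group Sham, at 45.1, 33.2 and 27.1 FPKM in group MI and at 37.7, 24.2 and 25.4 FPKM in group DAPA. The 6 infarcted rats lay above group Sham without overlap, and the log2 fold change in MI vs. Sham was 1.38 (SE 0.20, limma adjusted p = 0.00299). P4ha2, the other main catalytic subunit, was not among the 10 genes and served for the ratio, with mean levels of 26.2 ± 7.03 FPKM for Sham, 27.3 ± 6.21 for MI and 19.0 ± 3.48 for DAPA (SD, n = 3 each). The log2 ratio of P4ha2 to P4ha1 was 1.13, 1.34 and 0.62 in group Sham, -0.41, -0.32 and -0.34 in group MI and -1.01, -0.10 and -0.70 in group DAPA. P4ha2 thus outweighed P4ha1 in all 3 rats of group Sham and was outweighed by it in all 6 infarcted rats, a difference of -1.38 between groups MI and Sham (exact permutation p = 0.1, adjusted 0.15).

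P4ha3 (ENSRNOG00000017118), the third and least abundant catalytic subunit, was at 0.748, 0.880 and 0 FPKM in group Sham, at 1.43, 3.96 and 1.19 FPKM in group MI and at 1.75, 0.563 and 0.400 FPKM in group DAPA. These values rest on 13, 15 and 0 reads in group Sham, 46, 116 and 38 reads in group MI and 48, 15 and 12 reads in group DAPA. The count of 0 in Sham3 allows up to 0.205 FPKM, the worth of 3 reads, counting error alone considered. P4ha3 passed the filter on low values through the rats of group MI alone. Its log2 fold change in MI vs. Sham of 1.003 (SE 0.40, limma adjusted p = 0.0843) thus had to be positive. Neither this nor its lack of overlap with group Sham is support for the counts above. The call was lost without Sham1 (log2 fold change 1.12), without Sham3 (0.72) and with a pseudocount of 0.1 in place of 1 (2.20), so the fold change rose in the first and the last of these and fell in the other. In DAPA vs. Sham P4ha3 was below the filter and was not tested.

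Both chaperones were higher in group MI. Serpinh1 (ENSRNOG00000016831), which binds the folded procollagen helix, was at 129, 115 and 88.3 FPKM in group Sham, at 353, 391.8 and 264 FPKM in group MI and at 279, 242 and 325 FPKM in group DAPA. It had the highest level of the 10 genes in each group, and its log2 fold change in MI vs. Sham was 1.59 (SE 0.21, limma adjusted p = 0.00242). Fkbp10 (ENSRNOG00000015941), a prolyl isomerase of the endoplasmic reticulum that also acts with lysyl hydroxylase 2, was at 12.9, 13.4 and 7.17 FPKM in group Sham, at 43.7, 39.6 and 28.7 FPKM in group MI and at 29.0, 33.0 and 30.9 FPKM in group DAPA. For both chaperones the infarcted rats lay above group Sham without overlap. The log2 fold change of Fkbp10 in MI vs. Sham was 1.68 (SE 0.27, limma adjusted p = 0.00392). The log2 ratio of Serpinh1 to Fkbp10 was 3.35 ± 0.26 for Sham, 3.17 ± 0.15 for MI and 3.18 ± 0.27 for DAPA (SD, n = 3 each), and all groups overlapped.

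The upstream sequence of Serpinh1 is shown because a heat shock element, for which this chaperone gene is known, stands close to its start. The 250 bases before the start lie at chr1:163062977-163063226 (minus strand) in build GRCr8, with the match, 35 to 23 bases before the start, in capitals.
Serpinh1: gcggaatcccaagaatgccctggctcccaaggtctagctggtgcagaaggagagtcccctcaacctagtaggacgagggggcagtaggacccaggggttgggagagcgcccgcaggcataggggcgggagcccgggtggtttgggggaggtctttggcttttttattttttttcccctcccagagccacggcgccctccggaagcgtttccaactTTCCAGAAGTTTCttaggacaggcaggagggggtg

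**Figure D3:**
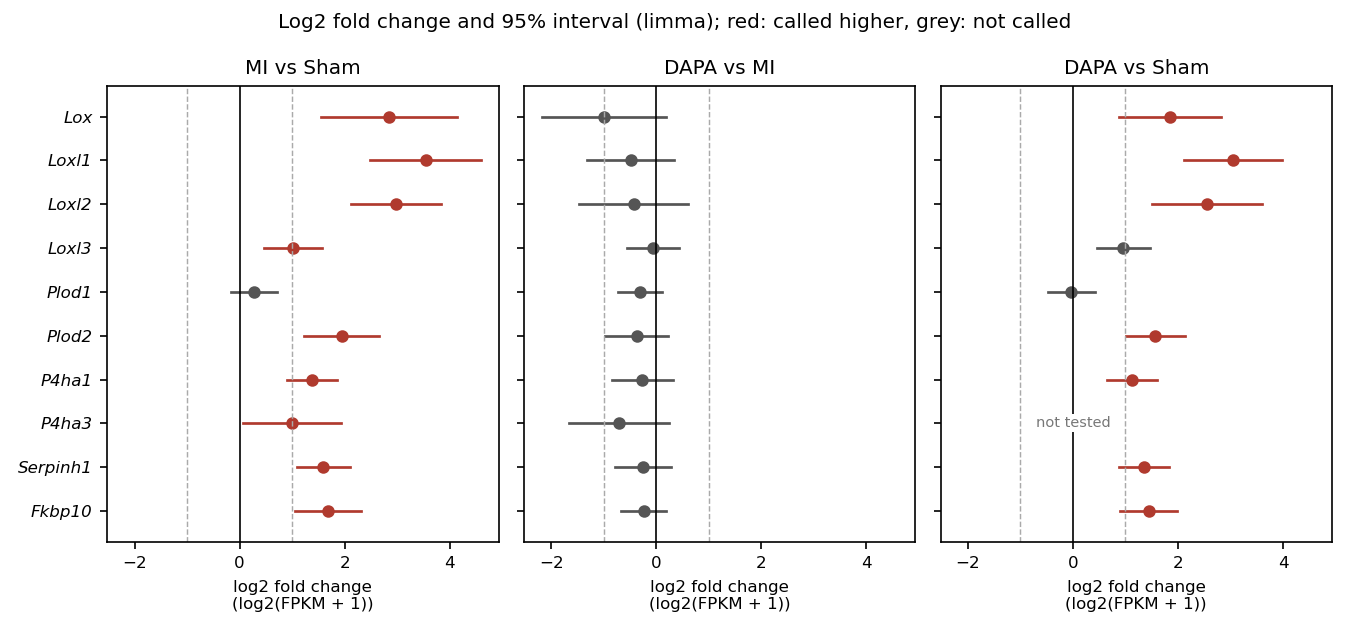
Log2 fold change on log2(FPKM + 1) (horizontal axes) with its 95% interval from limma for the 10 genes in MI vs. Sham, DAPA vs. MI and DAPA vs. Sham, where P4ha3 was not tested in the last. Red marks genes called higher and grey genes not called, and dashed lines stand at an absolute log2 fold change of 1. Of the 10 intervals in DAPA vs. MI, each includes 0.

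Between group DAPA and group MI none of the 10 genes was called by limma, none had an unadjusted p below 0.05 and none passed after adjustment. Of all 13251 genes tested, 0.951% were called higher and 1.11% lower, 4.59% and 3.9% had an unadjusted p below 0.05 in these directions, and 0% passed an adjusted p of 0.05, the smallest being 0.558. All 10 estimates were below 0, with a median log2 fold change of -0.34 against -0.02 for all genes tested, of which 52.8% were below 0. The treated rats overlapped with group MI in all 10 genes, whereas 7.16% of all genes tested were lower and 6.63% higher in group DAPA without overlap. This comparison and MI vs. Sham share the rats of group MI.

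The largest estimate was that of Lox, with a mean of 37.1 ± 20.1 FPKM for MI and 16.4 ± 5.63 for DAPA (SD, n = 3 each) and a log2 fold change of -1.002 with a 95% interval of -2.18 to 0.18 (limma adjusted p = 0.558). It turned on rat MI3, without which the log2 fold change of Lox was -1.55 and the gene was called lower, while without MI2 it was -0.65. P4ha3 followed with -0.71 (interval -1.66 to 0.24), and it was at -0.35 without MI2. It was called without DAPA1 (-1.01), but there it passed the filter through the rats of group MI alone, so that the direction was fixed and the call is no support. The intervals of these 2 genes allow a fall of more than 1 on the log2 scale as well as no difference.

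Loxl1 had a log2 fold change of -0.49 (interval -1.32 to 0.34) in DAPA vs. MI, and Loxl2 one of -0.43 (interval -1.48 to 0.61). Plod2 was at -0.38 (interval -0.98 to 0.22) and Plod1 at -0.31 (interval -0.73 to 0.11). In this fit the lower bounds of P4ha1 (-0.26, interval -0.85 to 0.32), Serpinh1 (-0.25, interval -0.78 to 0.28) and Fkbp10 (-0.24, interval -0.67 to 0.19) lay above -1, as did those of both Plod genes, that of Plod2 barely. The bounds hold for this scaling and these rats only. Loxl3 was nearest to 0, at -0.06 (interval -0.56 to 0.44), and its sign turned without MI1 (0.13) and without DAPA2 (0.06). These estimates moved by more than 1.5 times with single rats. Without MI2, Loxl1 was at -0.25, Serpinh1 at -0.13 and Loxl3 at -0.16. Without MI1, Loxl2 was at -0.23, Plod2 at -0.15, Plod1 at -0.19, P4ha1 at -0.07 and Fkbp10 at -0.12. Leaving out MI3 made the differences larger, with Loxl1 at -0.82, Loxl2 at -0.72, Plod2 at -0.62, P4ha1 at -0.43, Fkbp10 at -0.42 and Serpinh1 at -0.41. Of the treated rats, leaving out DAPA2 brought Loxl1 to -0.26, Loxl2 to -0.11, P4ha1 to -0.15 and Serpinh1 to -0.14, leaving out DAPA3 brought Loxl2 to -0.89, and leaving out DAPA1 brought Plod1 to -0.18 and P4ha1 to -0.46. In none of these fits was Loxl1, Loxl2, Plod1, Plod2, P4ha1, Serpinh1 or Fkbp10 called, and each kept its sign. The 10 limma adjusted p-values in this comparison lay between 0.558 and 0.926.

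Between group DAPA and group Sham, 9 genes were tested and 7 were called higher, the same number after adjustment, against 9.54% higher and 8.16% lower among all 13359 genes tested (8.74% higher after adjustment). They were Loxl1 (log2 fold change 3.05, SE 0.40), Loxl2 (2.55, SE 0.45), Lox (1.85, SE 0.42), Plod2 (1.57, SE 0.24), Fkbp10 (1.44, SE 0.24), Serpinh1 (1.35, SE 0.20) and P4ha1 (1.12, SE 0.20), with limma adjusted p-values from 0.00306 to 0.0165. Loxl3 (0.96, SE 0.22, limma adjusted p = 0.0169) lay under the fold threshold, and the treated rats were above group Sham without overlap in 8 genes, as in 23.2% of all genes tested. Without DAPA1 the log2 fold change of P4ha1 was 0.93 and the gene was not called, whereas Loxl3 was called without Sham2 (1.10) and without DAPA2 (1.08). Plod1 did not differ by more than its error, at -0.04 (interval -0.48 to 0.41), with a positive sign without Sham2 and without DAPA1 (0.09 each). The comparison shares its rats with the others.

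The rats of a group were not alike across the 10 genes. In group MI, MI3 had the lowest value in 9 of the 10 genes, all but Loxl3, and the highest value was in MI1 for 6 genes and in MI2 for 4. In group DAPA, DAPA2 was lowest in 7 genes. In group Sham, Sham2 was lowest in the 3 oxidases Lox, Loxl1 and Loxl2 and Sham3 in 6 other genes.

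The order of the mean levels in FPKM changed between the groups. In group Sham it ran Serpinh1, Plod1, Loxl1, Plod2, P4ha1, Fkbp10, Lox, Loxl3, Loxl2 and P4ha3, and in group MI Serpinh1, Loxl1, Plod2, Plod1, Fkbp10, Lox, P4ha1, Loxl2, Loxl3 and P4ha3. Group DAPA kept the first 5 places of group MI, followed by P4ha1, Loxl2, Lox, Loxl3 and P4ha3. In group MI, neighbours in the run of Plod2, Plod1, Fkbp10, Lox, P4ha1 and Loxl2 differed by less than the larger SD. Their levels were 51.9 ± 16.6, 42.4 ± 6.39, 37.3 ± 7.73, 37.1 ± 20.1, 35.1 ± 9.13 and 30.1 ± 9.92 FPKM (n = 3 each). In group Sham the same held for the run of Loxl1, Plod2, P4ha1 and Fkbp10 (14.9 ± 9.42, 12.7 ± 4.01, 12.6 ± 1.13 and 11.1 ± 3.45 FPKM) and for that of Lox, Loxl3 and Loxl2 (4.13 ± 2.77, 3.62 ± 0.919 and 3.01 ± 1.49 FPKM).

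Within the lysyl oxidase family, whose 5 genes summed to 26.1 ± 13.3 FPKM for Sham, 251 ± 93.1 for MI and 170 ± 54.5 for DAPA, Loxl1 took the largest share in each rat. Its share was 54.7% ± 6.51 for Sham, 69.3% ± 2.34 for MI and 71.3% ± 2.51 for DAPA (SD, n = 3 each), without overlap between either infarcted group and group Sham (exact permutation p = 0.1 for each, 0.157 and 0.138 after adjustment over 11 shares). The share of Loxl3 was 16.5% ± 9.86, 3.67% ± 1.40 and 4.84% ± 0.738 in the same order, lower in every infarcted rat than in any rat of group Sham. The difference between groups MI and Sham was -12.8 percentage points, and -7.27 without Sham2. Lox took 14.9% ± 3.48, 13.95% ± 3.44 and 9.72% ± 2.06 and Loxl2 11.8% ± 4.59, 12.3% ± 1.93 and 13.3% ± 4.32, with overlap in every comparison. No share differed between groups DAPA and MI beyond the overlap of their rats, and the smallest exact permutation p among the 11 was 0.2.

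The substrates were set beside the enzymes. Col1a1 was at 49.0, 13.7 and 14.3 FPKM in group Sham, at 1012, 1393 and 650 FPKM in group MI and at 312, 441 and 602 FPKM in group DAPA, a larger difference between groups MI and Sham than that of any of the 10 genes (log2 fold change 5.44, SE 0.51, limma adjusted p = 0.00103). The log2 ratio of Serpinh1 to Col1a1 was 1.39, 3.07 and 2.63 in group Sham, -1.52, -1.83 and -1.30 in group MI and -0.16, -0.87 and -0.89 in group DAPA. The 3 groups were separate from each other, with the treated rats between the others (DAPA vs. MI 0.91, exact permutation p = 0.1, 0.45 after adjustment over 9 ratios). The log2 ratio of Loxl1 to Col1a1 was -0.70 ± 0.26 for Sham, -2.56 ± 0.11 for MI and -1.90 ± 0.52 for DAPA (SD, n = 3 each), also without overlap between groups DAPA and MI (exact permutation p = 0.1, adjusted 0.45). The nearest rats, DAPA2 at -2.39 and MI1 at -2.44, almost met, and the difference of 0.66 fell to 0.38 without DAPA1. That of Lox to Col1a1 was -2.59 ± 0.45, -4.91 ± 0.49 and -4.80 ± 0.79, and here the groups DAPA and MI overlapped. Col1a1, which divides all of these ratios, was itself lower in DAPA vs. MI without overlap (log2 fold change -1.15). Serpinh1 (-0.25) and Loxl1 (-0.49) were not higher and overlapped. The share of all genes separate on a ratio to Col1a1 was not computed, so the separation cannot be called particular to Serpinh1 or Loxl1.

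All 5 substrates listed (Col1a1, Col1a2, Col3a1, Col5a1 and Eln) were called higher after infarction in MI vs. Sham, against 12.1% of all genes tested. In DAPA vs. MI, Col1a1 (log2 fold change -1.15) and Eln (-1.39), which encodes elastin, the other substrate of the lysyl oxidases, were called lower, with a limma adjusted p of 0.558 each. Among all genes tested 1.11% were called lower there. Col3a1 was at -1.05 and was not called. Without MI2, Col1a1 was at -0.89 and Eln at -1.35, and neither was called.

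Genes that mark other cells moved with the groups too. Of 7 fibroblast markers that are not matrix genes, 6 were called higher in MI vs. Sham, and their FPKM summed to 55.7 to 69.8 for Sham, 182 to 269 for MI and 147 to 209 for DAPA, with none at 0 in any rat. All 8 macrophage markers were called higher in group MI, with sums of 63.1 to 153, 564 to 1112 and 308 to 660 FPKM in the same order. Of the cardiomyocyte markers 3 of 9 were called lower in group MI, and of the endothelial markers 3 of 4 (sums of 266 to 414, 132 to 167 and 178 to 204 FPKM). The shares over all genes tested were 12.1% called higher and 10.3% called lower. None of the 4 smooth muscle and myofibroblast markers was called (292 to 1357, 482 to 664 and 434 to 688 FPKM). The low end of group Sham was Sham2 alone, and Sham1 (1357 FPKM) and Sham3 (1131 FPKM) lay above every infarcted rat. B and plasma cell markers (2 of 3 tested called higher, 5.40 to 7.31, 35.1 to 3644 and 10.6 to 15.6 FPKM), T cell markers (1 of 3 higher, 2.82 to 9.05, 6.58 to 70.4 and 4.74 to 5.21 FPKM) and mesothelial markers (1 higher and 1 lower of 2 tested, 32.7 to 39.4, 8.46 to 89.5 and 9.15 to 13.7 FPKM) varied most within group MI. Cardiomyocyte markers did not all move one way, with 2 of 9 estimates above 0 and 7 below. Without MI2 the calls were 1 higher and 2 lower of 9 cardiomyocyte markers, 5 estimates were above 0 and 4 below, and their median log2 fold change was 0.04.

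In DAPA vs. MI all 9 cardiomyocyte markers had estimates above 0 (median log2 fold change 1.31), and 2 of them, Tnni3 (1.56) and Myl2 (1.59), were called higher. Among all genes tested 0.951% were called higher and 1.11% lower. Of the B and plasma cell markers Jchain (-5.38) and Ighm (-4.20) were called lower, as were Cd3e of T cells (-1.85) and the mesothelial marker Msln (-3.67). Msln passed the filter in this comparison through the rats of group MI alone, so that its direction was fixed and its call is no support. No fibroblast or macrophage marker was called, with medians of -0.34 (6 of 7 below 0) and -0.78 (7 of 8 below 0), and endothelial markers had a median of 0.33. Without MI2 the cardiomyocyte median was 0.73 and no cardiomyocyte marker was called, Msln was not tested, and Jchain (-3.82), Ighm (-2.79) and Cd3e (-1.05) were still called lower. These values moved alongside the 10 estimates below 0 in this comparison. The part of these cells in the values of the 10 genes was not tested.

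Set against the mean log2(FPKM + 1) of the 7 fibroblast markers of the same rat, the 10 genes did not all lie on one side. That mean was 2.86 ± 0.10 for Sham, 4.73 ± 0.26 for MI and 4.39 ± 0.20 for DAPA (SD, n = 3 each), so a gene with equal FPKM in groups MI and Sham lies lower in group MI on this measure. The 7 markers differed widely, with log2 fold changes in MI vs. Sham from 0.51 for Fap to 3.67 for Thy1. Thy1 thus lay above Loxl1 (3.54) and Loxl2 (2.98), and the other markers lay below both, Pdgfra (2.81) close to Loxl2. A place above the mean is therefore not a place above each marker. Loxl1 stood 0.97 ± 0.82 above that mean for Sham, 2.64 ± 0.43 for MI and 2.49 ± 0.36 for DAPA (SD, n = 3 each), and both infarcted groups were above group Sham without overlap. Loxl2 was also higher without overlap in group MI (difference 1.11, and 0.72 without Sham2). Of all genes tested, 0.964% were higher and 87.9% lower in group MI without overlap on this measure. Plod2 differed little, with 0.87 ± 0.37, 0.95 ± 0.22 and 0.91 ± 0.34. Plod1 (difference between groups MI and Sham -1.59), Loxl3 (-0.84) and P4ha1 (-0.48) were lower in group MI without overlap. The other 5 genes overlapped between groups MI and Sham, and all 10 overlapped between groups DAPA and MI, where 12.5% of all genes tested were higher and 0.807% lower in group DAPA without overlap. The exact permutation p was 0.1 for the 5 genes without overlap and 0.2 after adjustment over 10 genes.

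**Figure D4:**
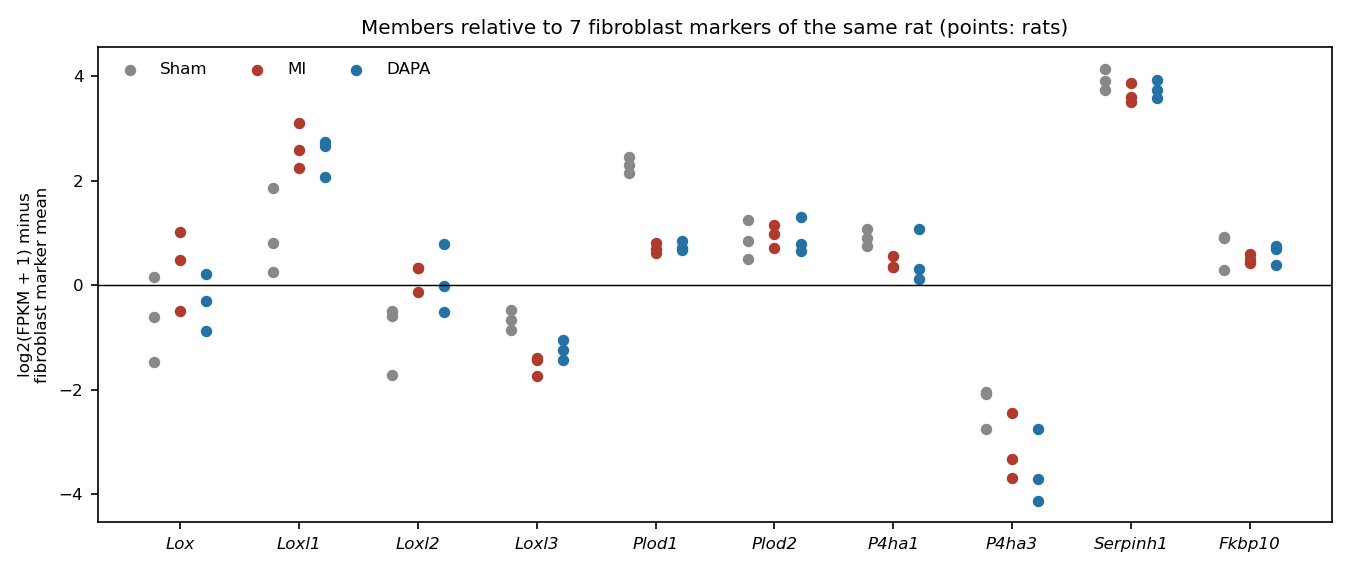
Log2(FPKM + 1) of each of the 10 genes minus the mean of 7 fibroblast markers of the same rat (vertical axis), with one point per rat of groups Sham, MI and DAPA. Loxl1 and Loxl2 lie above group Sham in group MI, Plod1, Loxl3 and P4ha1 lie lower, and the points of groups MI and DAPA overlap for all 10 genes.

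Relative to the cardiomyocyte marker mean, 8 of the 10 genes lay above group Sham in group MI without overlap, all but Plod1 and P4ha3, with differences on the log2 scale from 1.902 for Loxl3 to 4.42 for Loxl1 among the 8. Of all genes tested 20.7% did so, and the marker mean itself was 7.94 ± 0.31 for Sham, 7.06 ± 1.11 for MI and 8.33 ± 0.49 for DAPA (SD, n = 3 each). In DAPA vs. MI all 10 genes overlapped on this measure, while 0.0453% of all genes tested were higher and 12.4% lower in group DAPA without overlap.

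Other genes of collagen processing were taken from a list of 26, of which 23 were in the table by name. In MI vs. Sham 20 were tested, and 9 were called higher and none lower, with a median log2 fold change of 0.78. Of all genes tested, 12.1% were called higher and 10.3% lower. In this list 17 estimates were above 0 and 3 below. With a pseudocount of 0.1, 1 gene of the list was called lower (1758 of all 13485), as was 1 without MI1 (1417 of all 12958). Tll1, among the 9, passed the filter through the rats of group MI alone, so that its direction was fixed and its call is no support. The largest differences were those of Adamts2, the protease that removes the amino-terminal propeptide of procollagen (log2 fold change 3.09, SE 0.32, limma adjusted p = 0.00125), and Pcolce, which enhances removal of the carboxy-terminal propeptide (2.52, SE 0.26, limma adjusted p = 0.00124). They were followed by P4hb, the shared second subunit of the prolyl 4-hydroxylases (1.96, SE 0.19, limma adjusted p = 0.00105), and Creb3l1, a transcription factor of collagen secretion (1.72, SE 0.34, limma adjusted p = 0.00827). The paralogs outside the 10 genes were not called, with P4ha2 at 0.07 (interval -0.50 to 0.63) and Plod3 at 0.18 (interval -0.21 to 0.57). Loxl4 lay below the filter in this comparison, at 0.482 ± 0.186 FPKM for Sham and 1.62 ± 0.584 for MI (SD, n = 3 each).

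In DAPA vs. MI 21 genes of this list were tested and none was called, with 17 estimates below 0 and a median log2 fold change of -0.28. Of all genes tested, 0.951% were called higher and 1.11% lower, and 52.8% had estimates below 0. The smallest p-values were those of Adamts2, P4ha2 and Pcolce. Adamts2 was at 67.96, 57.1 and 36.7 FPKM in group MI and at 25.0, 22.7 and 44.8 FPKM in group DAPA (log2 fold change -0.81), with one treated rat inside the range of group MI. Pcolce was at 168, 143 and 105 FPKM in group MI and at 98.0, 95.9 and 103 FPKM in group DAPA, and it was the only gene of the list whose treated rats all lay below group MI (-0.45). Of all genes tested 7.16% were lower without overlap, so 1 gene of 21 is no more than that share. P4ha2 was at -0.50, and the limma adjusted p of Adamts2, P4ha2 and Pcolce was 0.558 each. In DAPA vs. Sham 19 were tested and 5 were called higher, 4 of them after adjustment, against 9.54% and 8.74% of all genes tested.

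**Figure D5:**
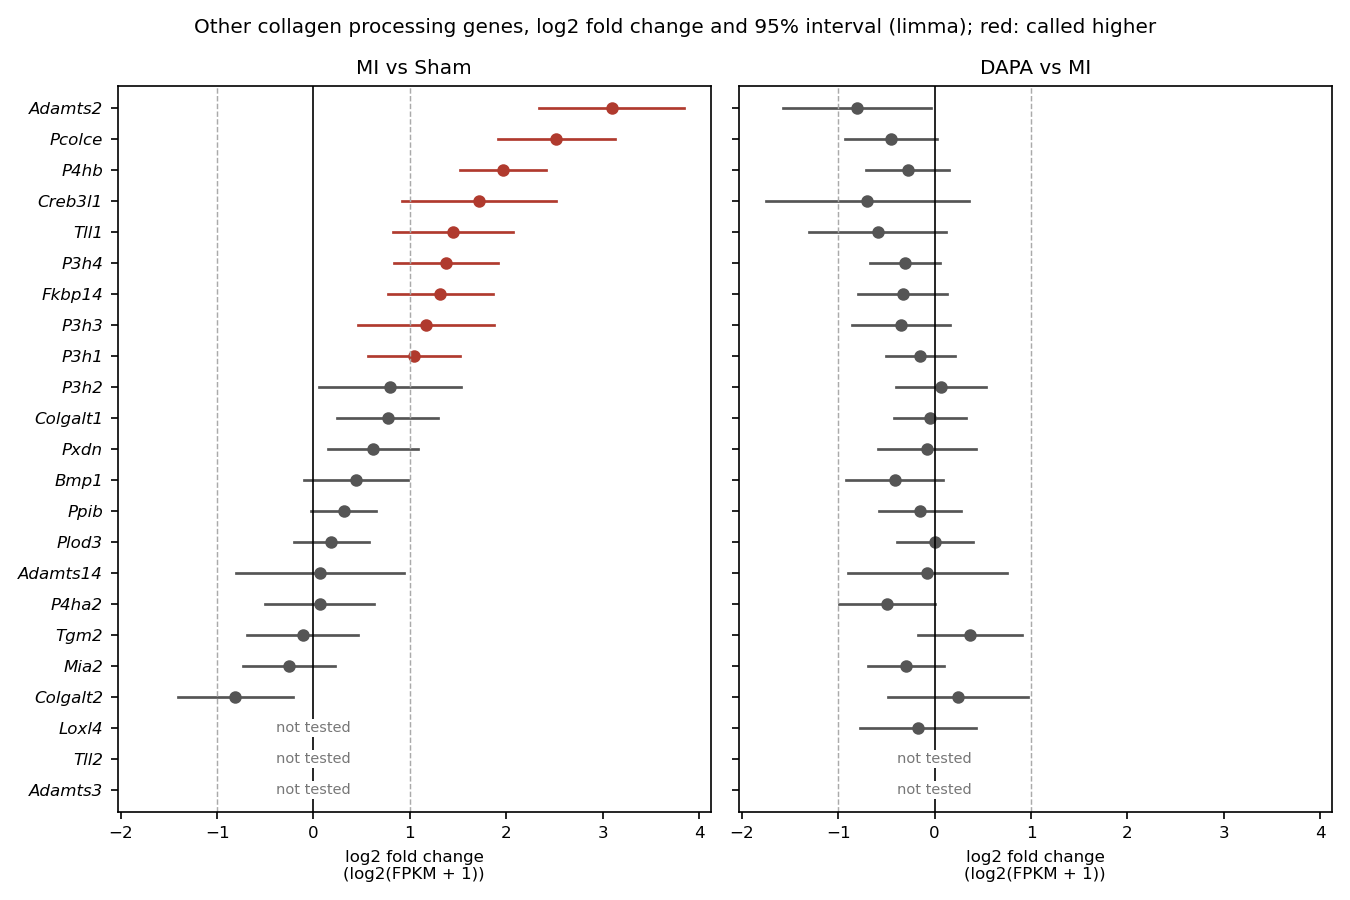
Log2 fold change on log2(FPKM + 1) (horizontal axes) with its 95% interval from limma for the other collagen processing genes tested, 20 of the 23 found in MI vs. Sham and 21 in DAPA vs. MI, ordered by the first, with the rest marked as not tested. Red marks the 9 genes called higher in MI vs. Sham, grey the genes not called, and dashed lines an absolute log2 fold change of 1.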

How the data were processed

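RNA-seq of left ventricle was analysed for 3 rats each of groups Sham, MI and MI + DAPA (1st d). The authors deposited FPKM values for 35843 genes, 1 column per rat, and 0 columns were left unused. The submitters' processing notes name HISAT2 2.0.5, StringTie 1.3.3b, featureCounts 1.5.0-p3 and DESeq2, and the genome build is not given in the sources used here. Libraries were poly-A selected. Because FPKM values are not counts, the count test of the study was replaced by limma 3.58.1 in R 4.3.3 on log2(FPKM + 1), a scale that understates changes of low genes, with the prior variance following the mean. Each fit held the 2 groups compared and genes at 1 FPKM or more in 3 or more of its 6 rats. Genes were called at an unadjusted p below 0.05 with a log2 fold change beyond 1 in size, the study's criteria, taken as unadjusted, and Benjamini-Hochberg values over all genes tested are given beside. The factor that divides the reads of a library in these values did not follow its total. Reads were recovered from the whole steps of the FPKM values (18896 of 18896 genes with a value in at least 4 rats). Ratios and shares were tested by exact permutation over rats (two-sided). Scripts were tested on simulated data. P-values measure the spread between these rats only.

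The 10 genes, the other lists and the motifs were chosen with earlier results of these data known. All 10 genes are named. Of the other collagen processing genes, the paralogs Loxl4, Plod3 and P4ha2, the 4 with the largest absolute log2 fold change in MI vs. Sham and the 3 with the smallest p in DAPA vs. MI are named. Tll1 is named for how it passed the filter. Alternatives were the pseudocount, the filter, scaling, the fold threshold, adjusted p-values, all 9 rats in 1 fit, no variance trend, the replicate block and each rat left out. Reads, ratios and plots were made in Python 3.11.15 (numpy 2.4.6, matplotlib 3.10.9, pandas 2.3.3).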

Additional observations from a re-analysis of the deposited data

How the results depend on the processing

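The counts of the 10 genes called kept within 1.5 times their value under every alternative in MI vs. Sham and DAPA vs. Sham. In DAPA vs. MI the count of 0 became 2 (Lox -1.37 and P4ha3 -1.10, both lower) when every rat was scaled to an equal sum of FPKM, a scaling that moved the median log2 fold change of all genes to 1.29 in MI vs. Sham, -0.34 in DAPA vs. MI and 0.996 in DAPA vs. Sham, and the share of calls that were higher to 97.9%, 8.89% and 97.8% from 54.0%, 46.2% and 53.9%. Under it 9231, 585 and 6662 genes were called in place of 3024, 273 and 2364, the other collagen processing genes called numbered 20, 1 and 17 in place of 9, 0 and 5, and Plod1 was called higher in MI vs. Sham (1.79) and turned to 1.12 in DAPA vs. Sham. Without the fold threshold 6605, 1125 and 5534 genes were called, and 1 and 12 of the other collagen processing genes in DAPA vs. MI and DAPA vs. Sham. With adjusted p-values 0 genes were called in DAPA vs. MI, and with an FPKM of at least 1 in every rat 2007 in MI vs. Sham. With mitochondrial genes left out and the rest rescaled, Loxl3 and P4ha3 fell to 0.99 each in MI vs. Sham and were not called, 3 of the other collagen processing genes were called in DAPA vs. Sham, and 35.5% of the calls in DAPA vs. MI were higher. Over single rats left out, DAPA vs. MI gave 111 to 561 genes, 0 to 1 of the 10 genes and 0 to 2 of the others, while the 10 genes gave 7 to 9 in MI vs. Sham and 6 to 8 in DAPA vs. Sham. Of all genes, 2545 to 3043 were called in MI vs. Sham and 2047 to 2478 in DAPA vs. Sham over these sets. In DAPA vs. MI the fewest genes of all were called without MI2 and the most without MI3. The share of calls in DAPA vs. MI that were higher ran from 32.2% to 72.7% over these sets, with the calls mostly higher without MI3 (72.7%) and without DAPA3 (58.9%) and mostly lower without each of the other rats. Over the same sets the log2 fold change of Loxl3 in DAPA vs. MI ran from -0.17 to 0.13, turning without MI1 and without DAPA2 (0.06), and that of Plod1 in DAPA vs. Sham from -0.17 to 0.088, turning without Sham2 and without DAPA1. The cause was not tested. Of the log2 fold changes of the 10 genes under all alternatives, 464 kept direction and call, 9 lost the call, 10 gained it and 5 turned.

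The replicate numbers do not pair the rats, which are different animals: deviations of rats with the same number correlated at -0.00, -0.01 and 0.07 in MI vs. Sham, 0.03, -0.32 and -0.26 in DAPA vs. MI and 0.12, 0.20 and -0.01 in DAPA vs. Sham, and 2, 1 and 3 of 6 rats correlated best with the rat of their own number. With that number as a block, 9, 0 and 7 of the 10 genes, 9, 0 and 5 of the other collagen processing genes and 3044, 217 and 2404 of all genes were called in MI vs. Sham, DAPA vs. MI and DAPA vs. Sham, and 32.7% of the calls in DAPA vs. MI were higher.

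With 3 rats a group, exact permutation tests cannot go below 0.1. P4ha3 rests on 0 to 116 reads per rat, and genes outside the mitochondrial genome were measured on fewer reads in group Sham than in the infarcted groups.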
